A study of Homo sapiens with 12 samples.

Results

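The genes examined here were 10 genes used as markers and regulators of the epithelial-mesenchymal transition (EMT): the adhesion genes CDH1 and EPCAM, the mesenchymal genes CDH2, VIM and FN1, and the transcription factors ZEB1, ZEB2, SNAI1, SNAI2 and TWIST1. Members were every array probe annotated with exactly one of these symbols, which gave 15 probes among the 50599 on the array. CDH2, ZEB1 and TWIST1 had 2 probes each, ZEB2 had 3, and the others had a single probe. The rule used the symbols alone and no measured value, although the genes were chosen with earlier results of these data known.

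RNA came from Colo320DM, an established human colorectal cancer cell line, and was hybridised to 12 one-colour Agilent arrays in 4 groups of 3. Control clones carried the pcDNA6.2-GW/EmGFP-miR-neg plasmid. TET1-knockdown clones carried a vector expressing an artificial microRNA against TET1, a dioxygenase that oxidises methylated cytosine in DNA. Each of the 6 clones was measured after mock treatment and after 5-aza-2'-deoxycytidine (5-aza-dC) at 1 µM for 72 h, a cytidine analogue that traps DNA methyltransferases and so lowers methylation. All clones were stably transfected lines grown from G418-selected, GFP-positive colonies, so each line was 1 clone. Of the 2 knockdown microRNAs, knockdown clones 1 and 2 carried the same one and clone 3 the other, per the study's description of its clones. The mock and treated arrays of the same number were the same clone, and the vector backbone and the G418 selection were shared by all groups.

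EMT is a change of state in which epithelial cells lose cell-to-cell adhesion and polarity and gain motility and a matrix-producing character. E-cadherin, encoded by CDH1, holds epithelial cells together, and its promoter is a known target of the repressors of the SNAI, ZEB and TWIST families, which bind E-box motifs. The gain of N-cadherin, vimentin and fibronectin, encoded by CDH2, VIM and FN1, is the usual mark of the mesenchymal state. Several of these genes are known to be silenced by promoter methylation in some tumours.

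The arrays lay on 2 slides, with 7 on slide 1 and 5 on slide 2, and the slides were not balanced over groups. Slide 1 held control mock clones 1 and 2, all TET1-knockdown mock clones and treated knockdown clones 1 and 3, and slide 2 held the rest. Arrays of a group correlated at 0.969 to 0.991 within a slide and at 0.933 to 0.957 across slides. Between 45.7% and 52.9% of probes were well above background, which is Agilent's own flag for a detected spot. The brightest TET1 probe read 4.01, 3.65 and 4.05 in control clones 1 to 3 and 3.01, 2.92 and 2.99 in knockdown clones, in log2 units relative to the array's 75th percentile, without overlap (difference −0.93, limma adjusted p = 0.276). After 5-aza-dC the same probe read 3.48, 3.79 and 3.56 against 2.39, 3.72 and 2.79, so the treated knockdown clone 2, which lay on slide 2, fell within the control range. The other probes for TET1 were lower by 1.35 and 1.08 in mock clones and by 1.73 and 1.04 in treated clones. None of these differences passed the test (limma adjusted p = 0.245 and 0.412 in mock, 0.126 and 0.135 in treated clones). The probe lower by 1.08 overlapped between the mock clone types. Of 10 colorectal epithelial marker genes, CDX1, CDX2, KRT20, KRT8 and KRT18 were detected on all 12 arrays and LGALS4 on 0 of 12. These are bulk RNA samples of clonal lines, in which fewer cells of a kind and less RNA per cell cannot be told apart.

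The promoter sequences of the EMT genes are shown because 5-aza-dC acts on methylation at CG dinucleotides, although methylation itself was not measured on these arrays. RefSeq's promoter table (GRCh38.p14) held windows for 5 of the 10 genes: CDH2, FN1, VIM, ZEB1 and ZEB2. The 250 bases before the start are printed 5′ to 3′ on the strand of the gene, with each CG in capitals. CDH2 has 17 CG in chr18:28177131-28177380 (minus strand), FN1 has 32 in chr2:215436069-215436318 (minus strand), VIM has 8 in chr10:17227991-17228240 (plus strand) and ZEB2 has 12 in chr2:144520120-144520369 (minus strand).
CDH2: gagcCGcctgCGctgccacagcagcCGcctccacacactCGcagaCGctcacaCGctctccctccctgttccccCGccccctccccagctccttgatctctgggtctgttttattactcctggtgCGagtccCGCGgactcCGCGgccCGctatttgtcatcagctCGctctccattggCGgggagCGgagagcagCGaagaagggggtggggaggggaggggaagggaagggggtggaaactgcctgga
FN1: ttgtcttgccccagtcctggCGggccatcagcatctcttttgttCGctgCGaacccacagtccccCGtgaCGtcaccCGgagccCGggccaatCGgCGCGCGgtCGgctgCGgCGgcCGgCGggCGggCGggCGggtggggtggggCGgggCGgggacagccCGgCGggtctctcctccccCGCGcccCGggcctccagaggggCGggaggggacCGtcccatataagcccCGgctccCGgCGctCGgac
VIM: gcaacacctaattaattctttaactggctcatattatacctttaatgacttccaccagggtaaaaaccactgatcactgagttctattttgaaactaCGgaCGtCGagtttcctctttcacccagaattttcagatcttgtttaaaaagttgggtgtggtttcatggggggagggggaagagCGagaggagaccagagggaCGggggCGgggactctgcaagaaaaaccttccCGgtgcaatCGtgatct
ZEB2: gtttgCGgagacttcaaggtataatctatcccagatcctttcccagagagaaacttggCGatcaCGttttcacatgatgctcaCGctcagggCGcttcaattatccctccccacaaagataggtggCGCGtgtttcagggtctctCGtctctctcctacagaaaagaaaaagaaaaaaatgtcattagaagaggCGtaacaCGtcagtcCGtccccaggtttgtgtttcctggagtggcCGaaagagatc
The median over all 35116 windows of this length was 11 CG. At least as many CG as in the FN1 window were found in 9.52% of windows, against 39% for CDH2, 48.5% for ZEB2 and 56.3% for VIM. A further CDH2 start, at chr18:28036642-28036891, had 4 CG, and the 7 windows of ZEB1 had 7 to 27. The E-box CAGGTG, searched on both strands and thus also as CACCTG, occurred in 2 of the 12 windows, both of ZEB1, and in 17.5% of all windows. A CG count describes the sequence and says nothing of its methylation in these cells.

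Detection differed among the 10 genes. VIM, ZEB1, ZEB2 and SNAI1 were well above background on all 12 arrays. EPCAM and CDH2, by their brightest probe, were each detected on 4 of 6 mock and 6 of 6 treated arrays, and TWIST1 on 0 of 6 mock and 6 of 6 treated arrays. FN1 was detected on 1 array, that of treated control clone 1, and CDH1 and SNAI2 on 0 of 12. Levels are given below as the log2 signal relative to the array's 75th percentile, which allows arrays to be compared for a probe but not different probes with each other.

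**Figure D1:**
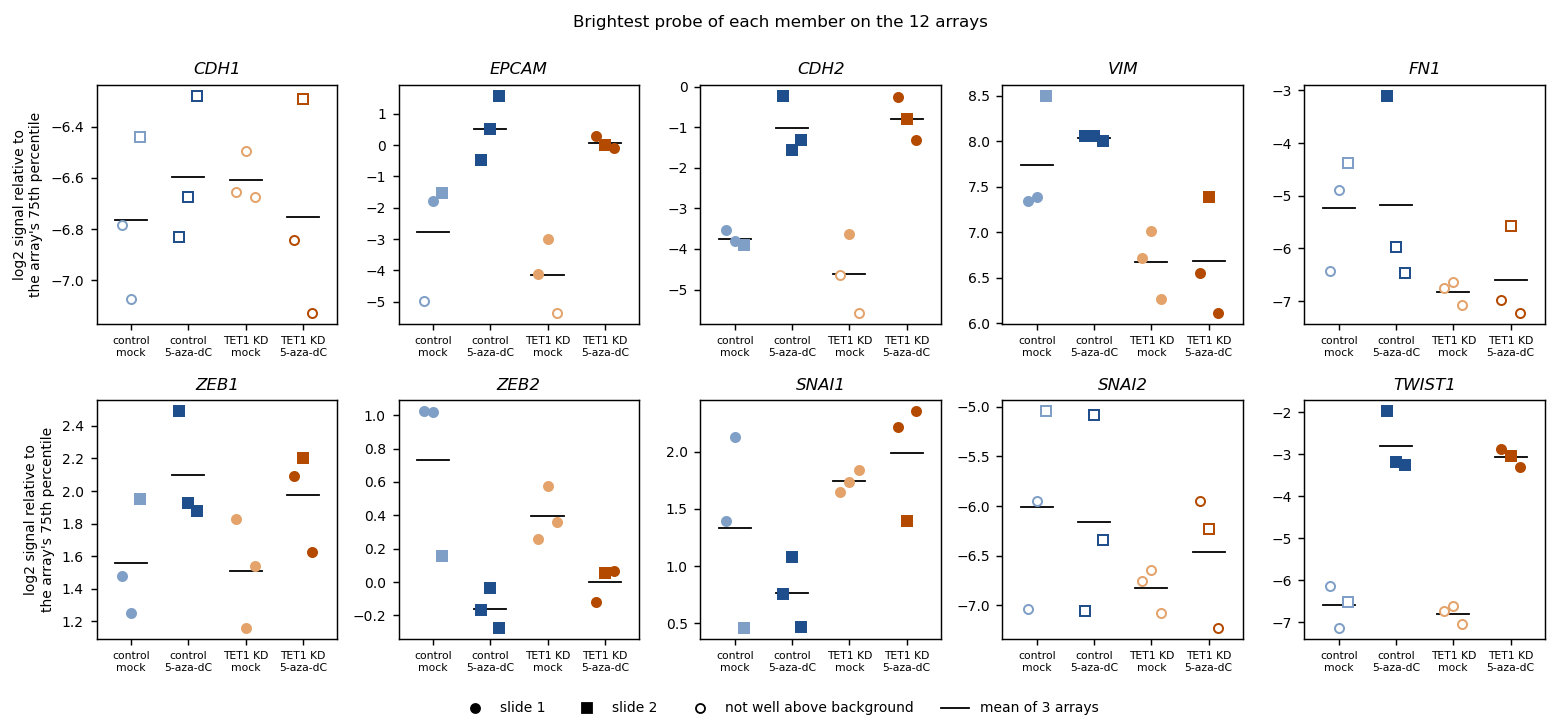
Level of the brightest probe of each EMT gene on the 12 arrays (y axis, log2 signal relative to the array's 75th percentile, with its own range in each panel) by group (x axis). Points are single arrays, circles lie on slide 1 and squares on slide 2, open symbols are not well above background and lines are means of 3 arrays. Treated arrays lie above all mock arrays for EPCAM, CDH2 and TWIST1 and below them for ZEB2, while VIM stays between 6.12 and 8.50.

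Among the adhesion genes, CDH1 and EPCAM stood apart in detection. CDH1 (hg19 probe position chr16:68869214-68869273, plus strand, replicated in 10 spots) lay between −7.13 and −6.28 on all arrays and was not well above background on any of them, with group means of −6.77 ± 0.32 and −6.60 ± 0.28 (SD, n = 3) in control clones before and after 5-aza-dC. No fold change can be given for it. EPCAM, an epithelial adhesion molecule (chr2:47613894-47613953, plus strand), read −4.98, −1.77 and −1.53 in mock control clones 1 to 3 and −4.10, −2.99 and −5.35 in mock knockdown clones. Control clone 1 and knockdown clone 3 were not above background there, and the clone types overlapped. The exon or UTR in which each probe lies was not determined here.

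Of the mesenchymal genes, VIM was bright in every clone, CDH2 was dim in mock clones and FN1 was near background. VIM, which encodes the intermediate filament vimentin (probe aligned over chr10:17278347-17279256, a stretch longer than the probe, plus strand), read 7.35, 7.38 and 8.50 in mock control clones and 6.72, 7.02 and 6.27 in mock knockdown clones, and no spot was saturated. All mock knockdown clones were below all mock control clones. CDH2, the N-cadherin gene, was read by A_33_P3214159 (chr18:25530936-25530995, minus strand) at −3.54, −3.81 and −3.91 in mock control clones and at −4.63, −3.63 and −5.57 in mock knockdown clones, of which clone 2 alone was detected. Its other probe, A_23_P38732 (chr18:25532081-25532140), was detected on 0 of the 6 mock arrays, where it read −6.89 to −5.07. FN1, the fibronectin gene (chr2:216288217-216288895, minus strand), reached −3.11 in treated control clone 1 and lay between −7.22 and −4.39 on the other 11 arrays, none of which was well above background.

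The transcription factors divided in the same way, with ZEB1, ZEB2 and SNAI1 detected everywhere and SNAI2 and TWIST1 not detected in mock clones. ZEB1, a zinc-finger repressor of CDH1, read 1.48, 1.25 and 1.95 in mock control clones and 1.83, 1.16 and 1.54 in mock knockdown clones with A_33_P3374723 (chr10:31818063-31818122, plus strand). The groups overlapped, as they did with the second probe, A_33_P3640690 (chr10:31816261-31816320), at −1.34 to −0.56 in mock clones. ZEB2, its paralogue, read 1.02, 1.02 and 0.16 in mock control clones and 0.26, 0.58 and 0.36 in mock knockdown clones with A_23_P142560 (chr2:145146261-145146320, minus strand). The control clone on slide 2 was the lowest of the 6. SNAI1, the Snail repressor (chr20:48605170-48605229, plus strand), read 1.40, 2.13 and 0.46 in mock control clones and 1.65, 1.73 and 1.84 in mock knockdown clones, again with the lowest value in the control clone on slide 2. SNAI2, encoding Slug (chr8:49830710-49830769, minus strand), lay between −7.23 and −5.04, and TWIST1, a basic helix-loop-helix factor, between −7.14 and −6.13 in mock clones with A_33_P3414591 (chr7:19156462-19156521, minus strand).

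To ask how the EMT genes responded to 5-aza-dC, treated arrays were compared with mock arrays over all 6 clones. EPCAM, CDH2 and TWIST1 were higher after 5-aza-dC and 2 probes of ZEB2 were lower, while VIM, ZEB1 and SNAI1 did not pass the test. The genes that rose thus included an epithelial adhesion gene, a mesenchymal cadherin and an EMT transcription factor. Of 15 probes, 11 from 7 genes were above background often enough to be tested, and 6 from 4 genes passed (limma, adjusted p under 0.05 over all probes tested), 4 higher and 2 lower. Over all 27285 probes tested, 13.2% passed, 7.24% higher and 6.01% lower. The treated and mock arrays did not overlap for 5 of the 11 probes, against 5.99% of all probes. The EMT probes that passed through the treated arrays alone had to differ, so these shares describe the genes and are no test of the list.

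EPCAM rose in each of the 6 clones. After 5-aza-dC it read −0.49, 0.50 and 1.56 in control clones 1 to 3 and 0.31, 0.01 and −0.10 in knockdown clones, and every treated array exceeded every mock array. In the 4 clones whose mock array was above background it rose by 2.27 and 3.09 (control clones 2 and 3) and by 4.40 and 3.00 log2 units (knockdown clones 1 and 2). Control clone 1 and knockdown clone 3, below background when mock-treated, rose by at least 20.4-fold and 27.0-fold, each set against the higher of the lowest detected signal on the mock array and the probe's own signal there. The fitted difference was 3.75 (SE 0.64, 95% interval 2.34 to 5.17, limma adjusted p = 0.00402). Exact permutation of the arrays gave p = 0.00216, two-sided and the smallest that 6 against 6 arrays can give. Both took each array as a separate unit and did not pair the 2 arrays of a clone, so the permutation p is too small for 6 clones. EPCAM also passed in limma with the clone as a block. The spread in mock clones was wide, and the treated level of the 6 clones spanned a narrower range than the mock level.

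CDH2 rose with both of its probes. A_33_P3214159 read −0.23, −1.55 and −1.30 in treated control clones and −0.26, −0.81 and −1.32 in treated knockdown clones, all above the highest mock value of −3.54. The fitted difference was 3.27 (SE 0.35, 95% interval 2.50 to 4.04, limma adjusted p = 0.000169). In the 4 clones detected when mock-treated it rose by 3.31, 2.25 and 2.61 (control clones 1 to 3) and by 2.82 (knockdown clone 2), and in knockdown clones 1 and 3 by at least 18.0-fold and 11.6-fold. A_23_P38732 went from below background on all 6 mock arrays to detected on all 6 treated arrays, at −3.08 to −1.55, at least 4.35-fold higher (limma adjusted p = 6.44e-05). That bound is formed as for single clones, from the means of the 6 treated and 6 mock arrays. This probe was tested only because the treated arrays detected it, so its p is no independent support.

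TWIST1 was the transcription factor that appeared with treatment. A_33_P3414591 read −1.97, −3.19 and −3.26 in treated control clones and −2.87, −3.05 and −3.30 in treated knockdown clones, and was below background on every mock array. It was at least 3.22-fold higher after 5-aza-dC (limma adjusted p = 6.36e-06), and by clone at least 2.12-fold to 7.32-fold. It too was tested only through its treated arrays, so its p is no independent support. The highest treated level was −1.97, which is under the array's 75th percentile. Its other probe, A_23_P71073 (chr7:19155645-19155704), was detected on 2 arrays only, those of treated control clones 1 and 2, and was too often below background to be tested. It read −4.09, −4.18 and −4.41 in treated control clones and −6.47, −4.06 and −6.07 in treated knockdown clones.

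**Figure D2:**
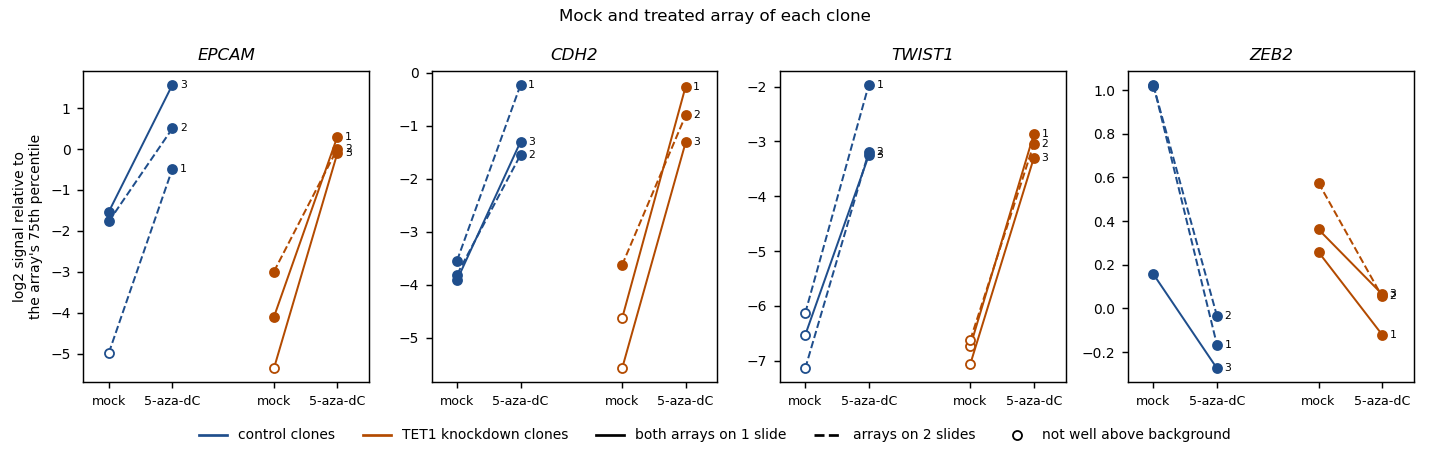
Mock and 5-aza-dC array of each clone (x axis) for the brightest probe of EPCAM, CDH2, TWIST1 and ZEB2 (y axis, log2 signal relative to the array's 75th percentile). Each line is 1 clone with its number, blue for control and orange for TET1 knockdown, solid where both arrays lay on 1 slide, and open symbols are not well above background. All 6 lines rise for EPCAM and CDH2, by 2.25 to 4.40 where the mock array was above background, all 6 lines of TWIST1 start from open symbols, and all 6 fall for ZEB2, by 0.30 to 1.19.

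ZEB2 fell by a smaller amount, and the call was lost with slide as a block and without single clones. A_23_P142560 read −0.17, −0.03 and −0.27 in treated control clones and −0.12, 0.05 and 0.07 in treated knockdown clones, all below the lowest mock value of 0.16. It fell by 0.65 on the log2 scale (SE 0.17, limma adjusted p = 0.0307). A_33_P3243832 (chr2:145182363-145182422) fell by 0.89 (SE 0.21, limma adjusted p = 0.0197), with treated arrays at −1.51 to −0.89 and mock arrays at −0.97 to 0.32. With slide as a block the differences were −0.45 and −0.77, and neither passed the test (limma adjusted p = 0.143 and 0.0929). In the 3 clones with both arrays on the same slide A_23_P142560 differed by −0.43, −0.38 and −0.30, and in the others by −1.19, −1.06 and −0.52. Without any clone but control clone 3, A_23_P142560 no longer passed (limma adjusted p = 0.0854 to 0.144). A_33_P3243832 lost its call on leaving out knockdown clone 3, or either of control clones 1 and 2 (limma adjusted p = 0.0749 to 0.109). A_21_P0000590 (chr2:145268973-145269032), designed to a noncoding RefSeq transcript, differed by −0.23 (limma adjusted p = 0.472).

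The remaining genes did not pass the test over all clones. VIM differed by 0.16 (95% interval −0.44 to 0.75), with clones moving by −0.50 to 0.71. SNAI1 differed by −0.16 (95% interval −0.78 to 0.46), with clones moving by −1.05 to 0.57. The ZEB1 probes differed by 0.50 and −0.29 (limma adjusted p = 0.108 and 0.348), in opposite directions. In 3 of these 4 probes, those of VIM, SNAI1 and ZEB1 A_33_P3374723, the sign was not shared by all clones. The sign over all clones turned to −0.39 for VIM and 0.39 for SNAI1 with slide as a block.

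**Figure D3:**
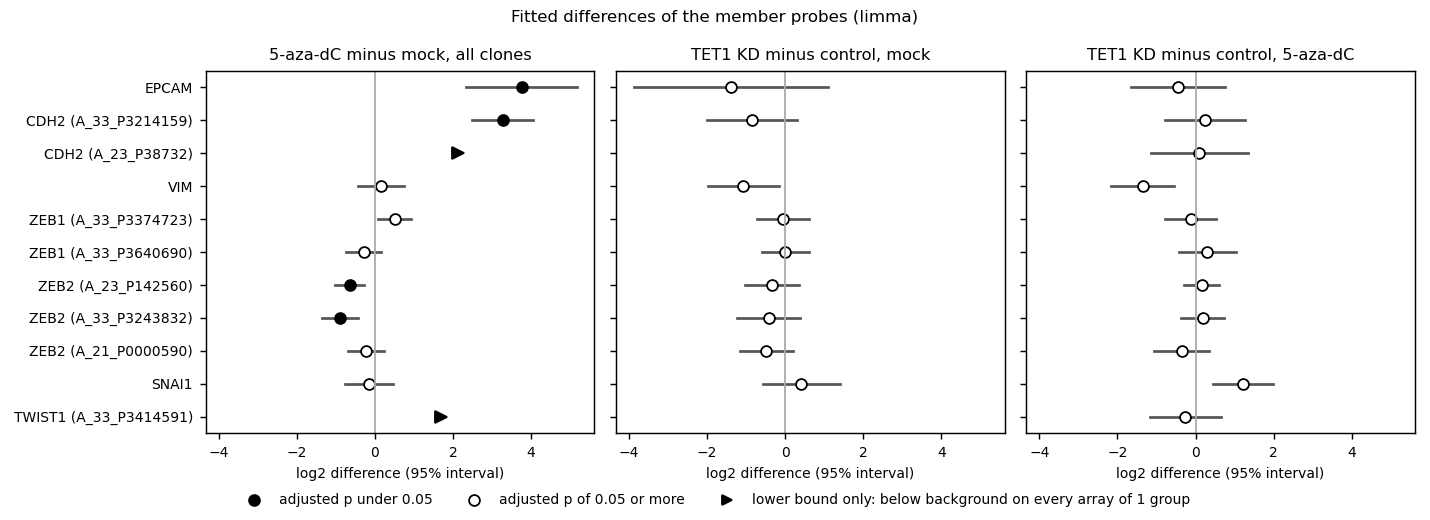
Fitted log2 difference of each tested EMT probe (x axis) with its 95% interval in 3 comparisons, 5-aza-dC against mock over all clones, and TET1 knockdown against control clones in mock and in treated cells. Filled symbols passed an adjusted p of 0.05 (limma), and triangles mark the log2 of a lower bound for probes below background on every mock array. The 6 filled symbols, all for 5-aza-dC, are EPCAM at 3.75, CDH2 at 3.27, the bounds of 4.35-fold for the other CDH2 probe and 3.22-fold for TWIST1, and 2 ZEB2 probes at −0.65 and −0.89.

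Within control clones, 3 of the 11 tested probes passed, all higher: both CDH2 probes and TWIST1. Over all probes 5.31% passed and 3.82% were higher, and 7 of the 11 EMT probes did not overlap between groups against 33.0% of all probes. CDH2 A_33_P3214159 rose by 2.72 (SE 0.36, limma adjusted p = 0.0117), and A_23_P38732 and TWIST1, detected only after treatment, were at least 4.47-fold and 3.75-fold higher. EPCAM, detected in 2 of 3 mock control clones, differed by 3.28 (SE 1.01, limma adjusted p = 0.113), and its adjusted p was 0.0298 with the clone as a block. CDH2 A_23_P38732, TWIST1 and EPCAM met the detection filter only with their treated arrays. Their p-values are therefore no independent support, and the shares are no test of the list. The single mock control array on slide 2 set against the 3 treated ones there gave 2.06 for EPCAM and 2.88 for CDH2 A_33_P3214159. With slide as a block 0 of the 11 passed. Leaving out control clone 1 or clone 2 also left 0, with CDH2 A_33_P3214159 at 2.43 and 2.96 (limma adjusted p = 0.0801 and 0.268), while CDH2 A_23_P38732 and TWIST1 then had only 2 detected arrays and were not tested.

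Within TET1-knockdown clones, 4 of the 11 tested probes passed, all higher: EPCAM, both CDH2 probes and TWIST1. Over all probes 2.06% passed and 2.05% were higher, and 5 of the 11 did not overlap between groups against 19.0% of all probes. EPCAM rose by 4.22 (SE 0.57, limma adjusted p = 0.0146) and CDH2 A_33_P3214159 by 3.81 (SE 0.53, limma adjusted p = 0.0169), detected in 2 and 1 of the 3 mock clones. CDH2 A_23_P38732 and TWIST1, detected only after treatment, were at least 4.23-fold and 2.76-fold higher. All 4 probes met the detection filter only with their treated arrays. Their p-values are therefore no independent support, and the shares are no test of the list. On slide 1, which held 3 mock and 2 treated knockdown arrays, the differences were 4.25 for EPCAM and 3.82 for CDH2 A_33_P3214159. Leaving out any of the knockdown clones 1, 2 or 3 left 0 calls, with fewer arrays and probes. EPCAM then differed by 3.70 to 4.83 (limma adjusted p = 0.0898 to 0.841), and CDH2 A_33_P3214159 by 3.54 without clone 1 and 3.59 without clone 3 (limma adjusted p = 0.845 and 0.375). CDH2 A_23_P38732 and TWIST1, and CDH2 A_33_P3214159 without clone 2, were then detected on too few arrays to be tested.

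Whether TET1 knockdown changed the response was asked by the interaction of clone type and treatment, the response of knockdown clones minus that of control clones. Of the 11 probes 0 passed, with 0 at an unadjusted p under 0.05 and a lowest adjusted p of 0.9999 (limma), while 0.0330% of all probes passed. The intervals were wide. Fitted without and with the clone as a block, the response differed by 0.94 for EPCAM (95% interval −1.89 to 3.77 without and −0.91 to 2.78 with the block) and by 1.09 for CDH2 A_33_P3214159 (−0.45 to 2.64 and −0.13 to 2.31), both below background in 2 of the 6 mock clones. For ZEB2 A_23_P142560 it differed by 0.49 (−0.25 to 1.24 and −0.15 to 1.14) and for SNAI1 by 0.81 (−0.43 to 2.04 and −0.13 to 1.74). These intervals do not show a like response in both clone types.

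Depletion of TET1 in mock-treated cells was compared over 9 tested EMT probes from 6 genes. None passed the test (0 called by limma and by the methods' t-test, lowest limma adjusted p = 0.414), against 0.137% of all probes, and 1 probe, that of VIM, had an unadjusted p under 0.05. VIM was also the single tested EMT probe whose groups did not overlap, against 21.1% of all probes. It was lower in knockdown clones by 1.07 (SE 0.38, 95% interval 0.17 to 1.98 lower, limma adjusted p = 0.414, exact permutation p = 0.1, the smallest that 3 against 3 arrays can give). On slide 1 alone, with 2 control and 3 knockdown arrays, the difference was −0.70. EPCAM differed by −1.39 (95% interval −3.89 to 1.11), CDH2 by −0.86 (−2.01 to 0.29), ZEB1 by −0.05 (−0.71 to 0.61) and SNAI1 by 0.41 (−0.58 to 1.41), and all of them overlapped.

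In 5-aza-dC-treated cells, VIM and SNAI1 did not overlap between clone types, in opposite directions. VIM read 8.05, 8.06 and 8.00 in treated control clones and 6.56, 7.39 and 6.12 in treated knockdown clones, a difference of −1.35 (SE 0.34, limma adjusted p = 0.176). SNAI1 read 0.75, 1.08 and 0.47 against 2.22, 1.39 and 2.35, a difference of 1.22 (SE 0.32, limma adjusted p = 0.179). These were the only 2 of the 11 tested probes with an unadjusted p under 0.05 or without overlap, and 0 passed (limma, and 0 by the methods' t-test), while 0.0680% of all probes passed and 25.1% did not overlap. Without knockdown clone 2, whose treated array alone of its group lay on slide 2, 3 probes passed: VIM at −1.70 (adjusted p = 0.00518), SNAI1 at 1.52 (adjusted p = 0.00894) and ZEB2 A_21_P0000590 (adjusted p = 0.0429). That left all knockdown arrays on slide 1 and all control arrays on slide 2, so that slide and clone type cannot be told apart there. The share of all probes that passed in that fit was not determined, so the 3 calls are no result about the EMT genes.

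Both genes differed between slides as well as between groups. VIM lay between 6.12 and 7.38 on the 7 arrays of slide 1 and between 7.39 and 8.50 on the 5 arrays of slide 2, and SNAI1 between 1.40 and 2.35 and between 0.46 and 1.39, so neither gene overlapped between slides. Within slide 2 the treated knockdown array was lower than the 3 treated control arrays by 0.65 for VIM and higher by 0.63 for SNAI1. For VIM the knockdown arrays were below the control arrays on each slide. For SNAI1 in mock cells the difference on slide 1 was −0.02, against 0.41 over both slides. The part of the slide in these differences was not tested.

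**Figure D4:**
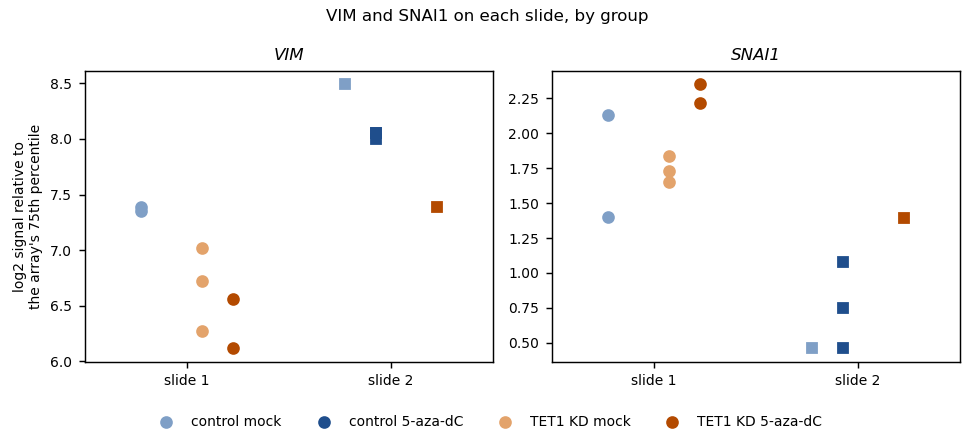
VIM and SNAI1 on each slide (x axis) by group (colour; y axis, log2 signal relative to the array's 75th percentile). Each point is 1 array. VIM is lower on slide 1 (6.12 to 7.38) than on slide 2 (7.39 to 8.50), SNAI1 is higher there (1.40 to 2.35 against 0.46 to 1.39), and on either slide the control arrays lie above the knockdown arrays for VIM.

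VIM had the widest range of the 4 EMT genes detected on every array, 2.38 log2 units. The genes whose pattern over the 12 arrays was closest to it, among 12082 genes detected on all arrays, were TCTN1 (Pearson r 0.980), COX4NB (0.978) and ZNF709 (0.975). The 12 points share clones, groups and slides.

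The same comparison was read for 94 further genes of the pathway in 5 lists, each gene by its brightest probe, over all clones after 5-aza-dC. Of the epithelial junction and polarity genes, 5 of 17 tested were higher and 0 lower, while 7.24% of all probes were higher and 6.01% lower (median 0.44, against −0.06 over all probes). They were PKP3, a desmosomal plakophilin detected on 1 of 6 mock arrays, at 4.76, the tight-junction genes CLDN3 at 3.31 (detected on 3 of 6 mock arrays) and MARVELD2 at 2.49, the polarity gene CRB3 at 1.16 (2 of 6) and the plakoglobin gene JUP at 0.89. Of the epithelial regulators, 2 of 4 tested were higher (median 0.90): the splicing regulator ESRP2 at 3.03 and the transcription factor OVOL2 at 1.69 (1 of 6). Of the mesenchymal and matrix genes, 6 of 22 tested were higher and 1 lower (median 0.67, or 0.32 with the 3 genes below background on every mock array at their bound, or at 0 without one). Those 3 were MSN, which encodes moesin (at least 1.26-fold higher), THY1 (at least 1.24-fold) and the collagen-crosslinking oxidase gene LOX, which was detected on 3 of 6 treated arrays and for which no fold can be given. The matrix protein gene TGFBI was higher by 2.36 (detected on 4 of 6 mock arrays), the matrix metalloproteinase gene MMP2 by 2.18 (1 of 6) and the collagen gene COL1A1 by 1.98, and the integrin gene ITGAV was lower, at −0.57. MSN, THY1 and LOX were tested only through their treated arrays, and PKP3, CRB3, OVOL2 and MMP2 met the detection filter only with theirs. Such genes could hardly come out lower, so the counts and medians describe the lists and are no test of them. Of the genes detected on all 12 arrays, JUP, MARVELD2 and ESRP2 rose among the epithelial genes and COL1A1 among the mesenchymal genes.

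Among the other EMT transcription factors, 2 of 7 tested were lower and 0 higher (median 0.03), TCF4 at −0.54 and TCF3 at −0.46, both E-proteins that pair with TWIST-type factors. Of the TGF-beta and BMP signalling genes, the best-known inducing pathway of EMT, 0 of 20 tested passed (limma), with differences of −0.48 to 0.83 and a median of −0.06. That list was the most often detected, with 19 of 22 genes above background on all 12 arrays, against 10 of 32 for the mesenchymal list. By clone type, PKP3, MARVELD2 and ESRP2 passed in control clones (4.83, 2.52 and 2.83) and in knockdown clones (at least 8.77-fold for PKP3, 2.46 and 3.24). CLDN3 at 3.52, JUP at 1.02 and COL1A1 at 1.90 passed in control clones, as did MSN and MMP2, at least 2.61-fold and 3.98-fold higher, and TGFBI at 3.14 passed in knockdown clones. PKP3 and CLDN3 were each detected in 1 of 3 mock control clones, and TGFBI in 1 of 3 mock knockdown clones. In control clones PKP3, CLDN3, MSN and MMP2 met the detection filter only with their treated arrays. The same held for PKP3 and TGFBI in knockdown clones. The counts by clone type therefore describe the lists and are no test of them. The calls over the 5 lists numbered 16 over all clones (9 to 17 on leaving out a clone). In control clones they numbered 8 (0 without clone 1 or clone 2, 13 without clone 3). Without control clone 3 the mock control arrays lay on slide 1 and the treated ones on slide 2. Slide and treatment cannot be told apart in that fit. In knockdown clones the calls numbered 4 (0 without clone 1 or clone 3, 2 without clone 2). The lists, in the order read above, had 17, 3, 19, 6 and 19 tested genes in control clones. In knockdown clones they had 17, 4, 19, 7 and 20. Of all probes, 13.2% passed over all clones, 5.31% in control clones and 2.06% in knockdown clones. Between knockdown and control clones, 0 genes of any of the 5 lists passed in mock or in treated cells (limma), against 0.137% and 0.0680% of all probes, and 0 passed for the interaction, against 0.0330%. Without knockdown clone 2, where slide and clone type cannot be told apart, 17 passed in treated cells. The share of all probes that passed was not determined for this fit or the others that left out a clone. Their counts are therefore no result about the lists.

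**Figure D5:**
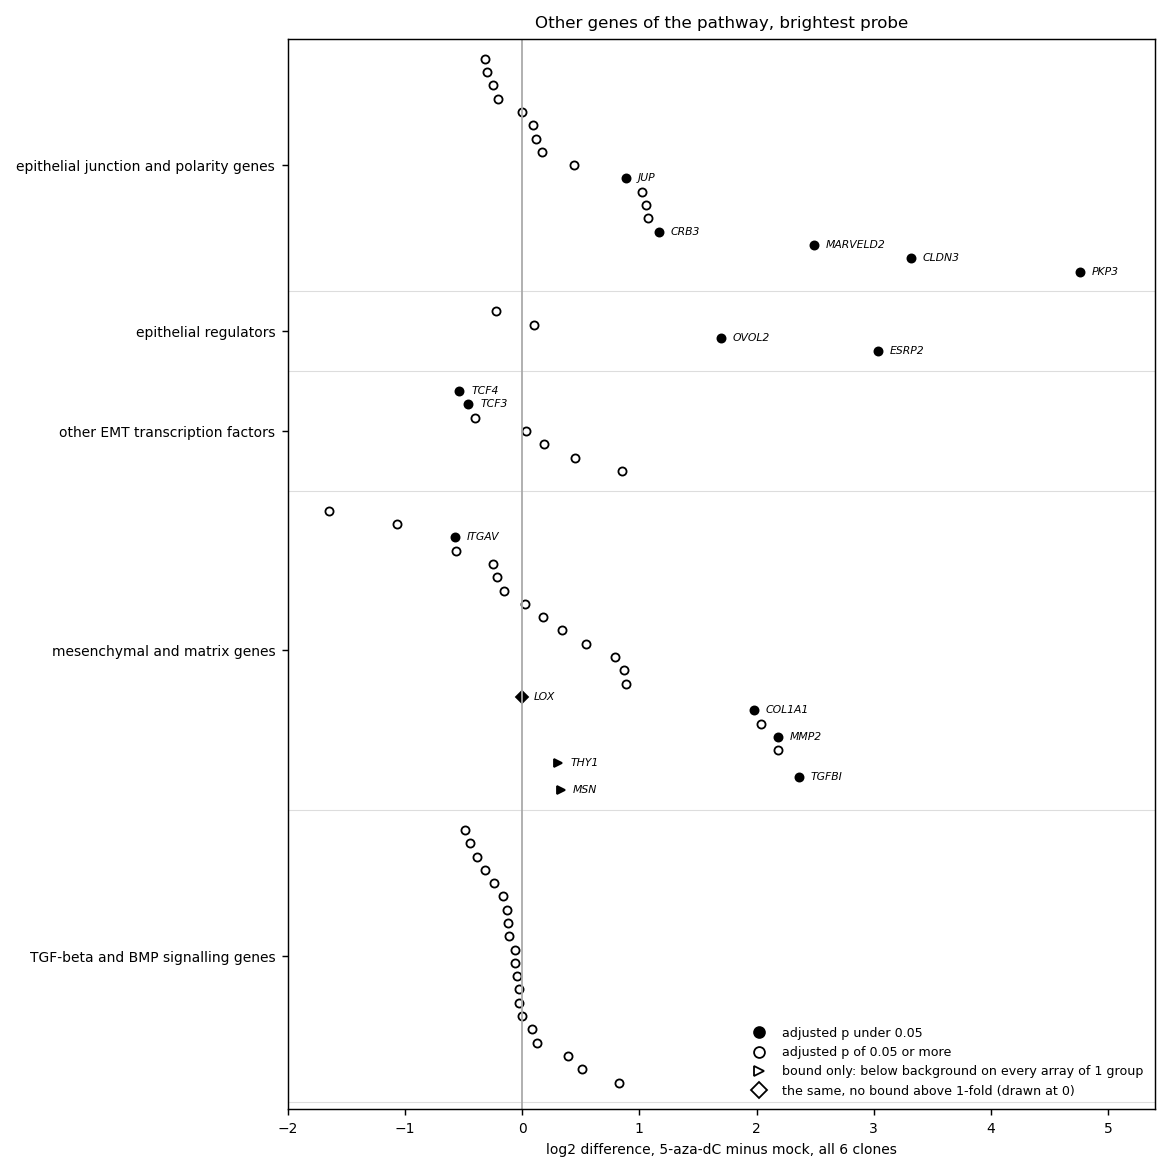
Fitted log2 difference between 5-aza-dC and mock over all 6 clones (x axis) for each tested gene of the 5 pathway lists (rows, grouped by list on the y axis and sorted within a list). Filled symbols passed an adjusted p of 0.05 (limma) and carry their gene name, triangles mark the log2 of a lower bound (MSN and THY1), and the diamond at 0 is LOX, with no bound. The highest are PKP3 at 4.76, CLDN3 at 3.31 and ESRP2 at 3.03, and none of the 20 TGF-beta and BMP signalling genes is filled. PKP3 and CLDN3 were detected on 1 and 3 of 6 mock arrays, so their sizes rest partly on values below background.

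Markers of other cell types were read beside these changes. Of 8 fibroblast markers, COL1A1 was detected on all 12 arrays and COL1A2 on none. COL1A1 and THY1 were higher after 5-aza-dC as above, THY1 tested only through its treated arrays. COL3A1 and LUM, each detected on 11 arrays, differed by −1.07 and 2.18 and did not pass (limma adjusted p = 0.370 and 0.122). The summed signal was 0.342 to 2.12 times the array's 75th percentile in mock clones and 1.21 to 3.16 times in treated clones. Of the neuroendocrine markers, INSM1 was detected on no array, and ENO2, not detected on every array, was higher by 3.32. CHGA was detected on 1 of 3 mock and 3 of 3 treated control arrays and on 0 of 6 knockdown arrays, and passed in control clones (5.98, limma adjusted p = 0.0315). CHGA met the detection filter there only with its treated arrays. The summed neuroendocrine signal was 0.270 to 0.421 in control mock clones and 2.83 to 5.55 in treated ones, and 0.0980 to 0.613 and 1.78 to 2.32 in knockdown clones. The epithelial keratin gene KRT19, of the colorectal list, was at least 5.79-fold higher and was tested only through its treated arrays. That list's summed signal was 152 to 422 in mock and 151 to 333 in treated clones. The sum weighs bright probes most, among them CDX2 with group means of 7.43 to 8.14 on the log2 scale. It therefore says little of dim genes such as KRT19. The endothelial markers PECAM1 and KDR were detected on no array. CDH5 and VWF were lower, at −0.87 and −1.62, but neither was detected on all 12 arrays. VWF was detected on too few arrays to be tested in control clones. The 4 endothelial markers together summed to 0.0601 to 0.230. The part of any of these in the changes of EPCAM, CDH2 and TWIST1 was not tested.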

How the data were processed

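Total RNA was labelled with Cy3 and hybridised to Agilent one-colour arrays of 62976 spots. The deposited scanner files hold Feature Extraction (10.7.3.1) intensity values, background-corrected by the authors' scanner software (gProcessedSignal). A table of the whole series, also deposited as intensity, equalled these to within 0.497% and served as an alternative. Here 4259 control spots and 268 to 395 outlier spots an array were left out, log2 intensity was centred on each array's 75th percentile (360.6 to 541.8 in the deposited intensity), and spots of a probe were averaged. A probe was tested if well above background (in at least 50% of its spots) on 3 or more arrays of a comparison. The fits used limma 3.58.1 (lmFit, eBayes, R 4.3.3), two-sided, with Benjamini-Hochberg adjustment over all probes tested, and Python 3.11.15. The main fits had no term for clone or slide. With 3 arrays a group, p-values measure the spread between clones of a line.

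The rule for named genes was all 10 genes with every probe, TET1, up to 4 called genes of each pathway list by size, and the 3 genes closest in pattern to VIM. Others were named after their values were seen. Members and lists were chosen with earlier results of these data known. All 15 probe accessions matched RefSeq under the same symbol. Probe positions are hg19, per the file annotation, and promoters GRCh38.p14. Mock and treated arrays of a number are the same clone, and their deviations over 19749 probes correlated at 0.217 to 0.616. Numbers did not pair knockdown with control clones. Some marker genes are not reported here. The script was checked on simulated data.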

Additional observations from a re-analysis of the deposited data

How the results depend on the processing

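The rise of EPCAM and of CDH2 A_33_P3214159 over all clones passed the test under all 14 alternatives that tested them, with adjusted p of 0.00162 to 0.0371 for EPCAM and 0.000169 to 0.011 for CDH2 (limma). The other CDH2 probe and TWIST1 were tested only through their treated arrays, so their calls say nothing of stability. ZEB2 passed in 7 of 15 (A_23_P142560) and 10 of 15 (A_33_P3243832). Of 567 recomputed differences, 496 kept direction and call, 25 lost the call, 6 gained it and 40 turned sign, none of them a difference that had passed the test. The cause was not tested, except that a filter on detection in every array, and leaving out a clone within a clone type, test fewer probes.

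Probes called numbered 3 in control clones, 4 in knockdown clones and 6 over all clones. In control clones they became 5 with the array median as scale, 1 with detection on every array, 0 with slide as a block, with or without the replicate block, and 0 with the methods' t-test. In knockdown clones they became 0 with detection on every array, 2 with slide as a block and 1 with the t-test. Over all clones they became 2 with detection on every array. Leaving out a clone gave 0 to 4 in control clones, 0 to 0 in knockdown clones, 4 to 6 over all clones and 0 to 3 for knockdown against control after 5-aza-dC (3 without knockdown clone 2). The 4 in control clones came without control clone 3, where slide and treatment cannot be told apart. The array median as scale moved the median of all probes over all clones from −0.06 to −0.29.

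The replicate block, which pairs mock and treated arrays of a clone, gave 4, 4 and 6 calls in control, knockdown and all clones. It added EPCAM in control clones and changed no other count. For knockdown against control, where only the number is shared, it gave 0 and 0 calls, and their same-number correlations were −0.06 to 0.09. The t-test was not run over all clones or for the interaction, nor the block with slide for knockdown against control.

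Sign turned with slide as a block for knockdown against control in mock cells (ZEB1 0.14, SNAI1 −0.022), after 5-aza-dC (ZEB1 0.10), for treatment of control clones (VIM −0.46, SNAI1 0.31), knockdown clones (VIM −0.33), all clones (VIM −0.39, SNAI1 0.39) and the interaction (VIM 0.088, ZEB1 0.082). With slide and replicate block it turned in control clones (VIM −0.50, ZEB1 −0.074, SNAI1 0.0051), knockdown clones (VIM −0.16), all clones (VIM −0.27, SNAI1 0.28) and the interaction (VIM 0.010, ZEB1 0.22, TWIST1 0.029). VIM in knockdown clones was −0.023 with quantile normalization, −0.018 with normexp and −0.25 with the array median. That scale also gave SNAI1 −0.025 there and VIM −0.075 over all clones. Leaving out a clone gave, in mock knockdown against control, ZEB1 −0.21 to 0.14 and SNAI1 −0.022 to 0.81, and after 5-aza-dC, EPCAM −0.96 to 0.067, CDH2 −0.032 to 0.63, ZEB1 −0.24 to 0.069 and TWIST1 −0.49 to 0.15. It gave VIM −0.16 to 0.11 in knockdown clones, and in the interaction ZEB1 −0.38 to 0.16 and TWIST1 −0.32 to 0.12.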
